A study of Rattus norvegicus with 6 samples.

Results

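The genes described are a set of RNA-binding proteins with a KH domain, among them paralogs of PCBP-1. They were chosen by symbol from the count table, and all 10 were found among its 20609 genes: the paralogs Pcbp2, Pcbp3 and Pcbp4, the STAR proteins Khdrbs1 and Khdrbs3, the FUSE-binding proteins Fubp1 and Fubp3, and Fmr1 with its autosomal relatives Fxr1 and Fxr2. RNA was sequenced from cells labelled as PC12, a rat line derived from a pheochromocytoma of the adrenal medulla. Of the 6 libraries, 3 came from cells given a control plasmid and 3 from cells overexpressing PCBP1 (PCBP1-OE) from a plasmid that carries an EGFP tag. Neither the insert of the control plasmid nor the culture behind each library is given, and the methods describe a transfection with Lipofectamine-2000, while elsewhere the paper calls the overexpression stable. The p-values therefore measure the spread between these libraries, which may be partly technical.

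The KH domain is a small fold that holds a short stretch of single-stranded RNA or DNA in a groove. PCBP proteins carry several such domains and prefer runs of C, through which they act on splicing, mRNA stability and translation, and some of them deliver iron to ferritin. Khdrbs proteins bind A- and U-rich RNA and act on splice site choice, FUBP proteins bind single-stranded DNA upstream of Myc and also RNA, and FMRP, the product of Fmr1, represses translation in neurons, where its loss causes fragile X syndrome. FXR1P and FXR2P resemble FMRP in domain order and bind it.

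The libraries held 19730209 to 22315623 counts on genes. Levels are given as CPM, which are counts scaled to library size after TMM normalisation, and the members had between 231 and 9942 counts per library, so all 10 passed the filter on low counts. Pcbp1 itself had no matched row and is not analysed here, so the overexpression was not checked. Of 8 chromaffin markers only 3 of the 7 found passed the filter, with Th, the first enzyme of catecholamine synthesis, averaging 7.95 ± 0.846 CPM under the control plasmid and 7.73 ± 0.789 under PCBP1-OE (SD, n = 3 a group). Dbh, which makes noradrenaline, had 0 to 5 counts per library and Chga, the main granule protein, 0 to 3. Scg2, a granule protein of the same list, was abundant, with 2607 to 3553 counts per library and 155 ± 14.6 CPM under the control plasmid. All 4 glial markers used passed, and the glial regulator Sox10 was at 400 ± 9.45 CPM in controls and 367 ± 6.73 in PCBP1-OE. Some defining markers of the labelled cell type were thus near 0 and another was high, and the name PC12 is used below only as the label. The summed glial markers ran from 619.7 to 664 CPM in controls and from 586 to 606 in PCBP1-OE, the 4 fibroblast markers from 225 to 230.4 and from 200.1 to 212, and the 4 leukocyte markers from 6.82 to 7.76 and from 6.13 to 6.22, each without overlap. The fibroblast sum was nearly all Pdgfra, at 223 ± 2.64 CPM in controls and 203 ± 6.74 in PCBP1-OE. Col1a1 averaged 3.16 and 3.38 CPM, or 1.07-fold of control, Col3a1 1.78 and 1.33 CPM, and Dcn had 0 to 5 counts per library. Cd68 was the leukocyte marker whose groups did not overlap. The chromaffin sum, mostly Scg2, overlapped. Slc18a1 of that list had 17 to 28 counts per library. Its PCBP1-OE libraries lay above all controls, at 1.38-fold (edgeR adjusted p = 0.296). No single marker passed the test, the leukocyte marker Ptprc had 0 to 3 counts, and the part of these markers in the results was not tested. Control replicate 3 was the control nearest to the PCBP1-OE mean in 50.1% of all genes tested, so results are also given without it where it changes them. In bulk RNA, fewer cells of a type and less RNA per cell cannot be told apart.

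Fmr1 was the one member whose level differed between the groups by the test. Fmr1 (ENSRNOG00000057464, chromosome X) was 1.33-fold higher in PCBP1-OE, while Fxr1 was 1.14-fold higher without passing the test and Fxr2 was at 0.990-fold. Pcbp2, the closest paralog of the overexpressed gene, was at 1.02-fold. Pcbp3, Pcbp4, Khdrbs1 and Khdrbs3 were each at 0.912 to 0.940 of the control level, and Fubp1 and Fubp3 at 1.11-fold and 1.20-fold, none of which passed.

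A gene is called where edgeR's quasi-likelihood p, adjusted by Benjamini and Hochberg's method over all 12624 genes tested, is 0.05 or less. By this rule 1 of the 10 members was called, against 9.45% of all genes tested (4.45% higher and 5% lower in PCBP1-OE), so the members were called about as often as genes in general. No member reached a 2-fold change, as 0.19% of all genes did together with a call. The median log2 fold change of the members was 0.0064, with 5 above and 5 below 0, and that of all genes tested was 0.0029. In size the members were likewise close to the rest, with a median absolute log2 fold change of 0.12 against 0.13. In 7 of the 10 members the 3 libraries of one group all lay above those of the other, which held for 30.6% of all genes tested. These 7 were Fubp1, Fmr1 and Fxr1, higher in PCBP1-OE, and Pcbp3, Pcbp4, Khdrbs1 and Khdrbs3, lower.

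**Figure D1:**
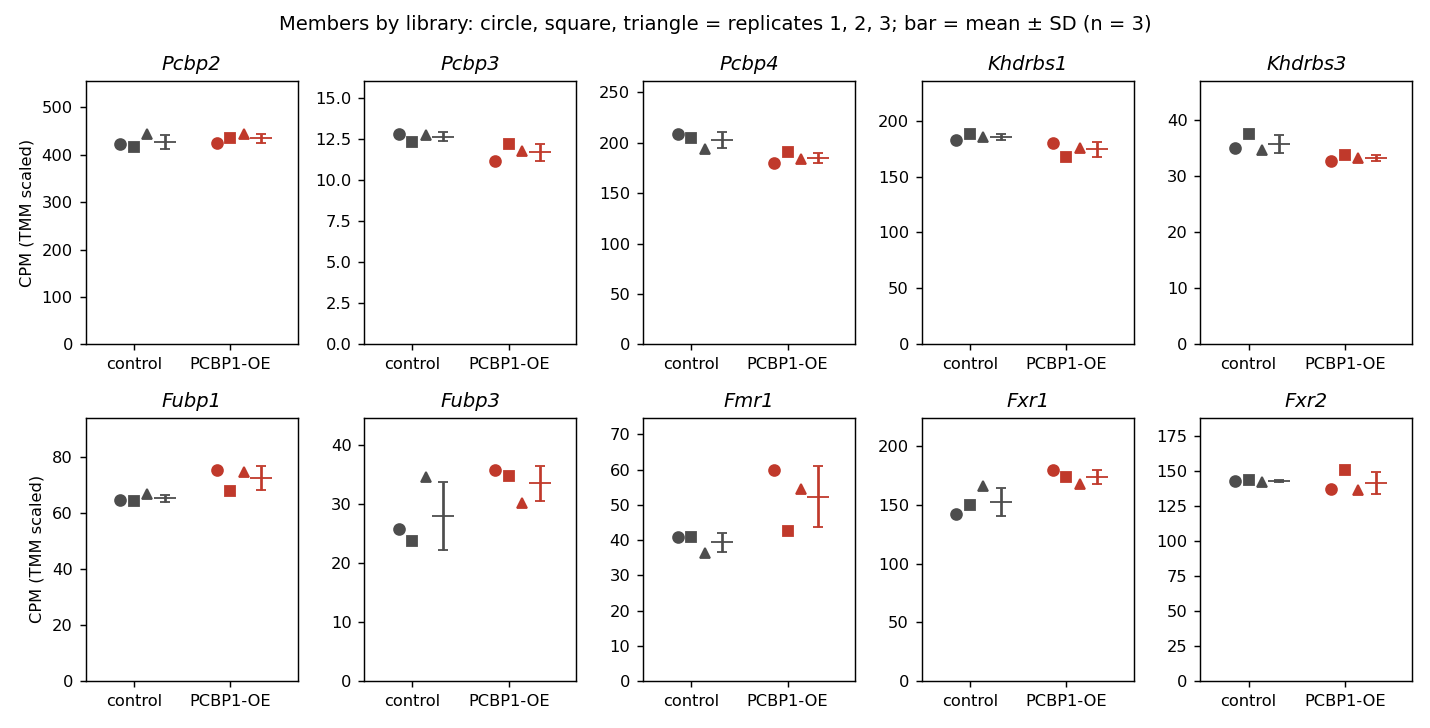
TMM-scaled CPM of each member (y axis, from 0) in the 3 control libraries (grey) and the 3 PCBP1-OE libraries (red), with replicates 1, 2 and 3 as circle, square and triangle and the mean ± SD beside them. The PCBP1-OE points of Fmr1 spread from 42.7 to 59.8 CPM, all above the controls, while the groups overlap in Pcbp2, Fubp3 and Fxr2.

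**Figure D2:**
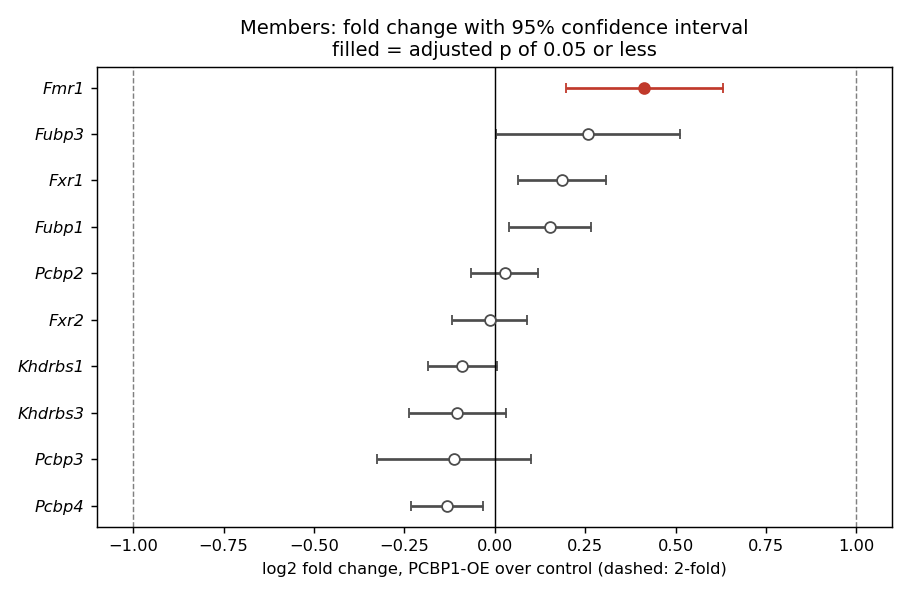
Log2 fold change of each member, PCBP1-OE over control (x axis), with its unadjusted 95% confidence interval. A filled point has an adjusted p of 0.05 or less. Fmr1 at 0.41 is the filled point, and all 10 intervals lie inside the dashed lines that mark 2-fold.

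Of the PCBP paralogs, Pcbp2 (ENSRNOG00000036852, chromosome 7) encodes hnRNP E2, which binds C-rich stretches in viral and cellular RNAs and shares much of its sequence with PCBP-1. The control libraries held 8275, 8680 and 9942 of its counts, and the PCBP1-OE libraries 9373, 8786 and 8710. As CPM this was 422, 416 and 443 against 425, 435 and 445. The groups overlapped through control replicate 3, which lay close to the highest PCBP1-OE library, while the other controls lay below all PCBP1-OE libraries. PCBP1-OE exceeded control by 0.03 log2 units (SE 0.04, edgeR adjusted p = 0.730), with a 95% interval of -0.07 to 0.12. Among the members Pcbp2 had the smallest counting error, 1.0% to 1.1% per library, and its replicates varied by 3.38% in controls and 2.22% in PCBP1-OE. Reads of an overexpressed PCBP1 that match Pcbp2 could be counted with it, and their part was not tested.

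Pcbp4 (ENSRNOG00000012406, chromosome 8), a paralog linked to cell cycle arrest downstream of p53, was at 209, 205 and 194 CPM in the controls, against 180, 191 and 184. All PCBP1-OE libraries lay below all controls, and control replicate 3 and PCBP1-OE replicate 2 were the nearest to each other. The difference of -0.13 log2 units (SE 0.05, 95% interval -0.23 to -0.03) missed the threshold, at an edgeR adjusted p of 0.0806. Pcbp4 was called in 1 of the 6 fits that leave out a library. That was the fit without control replicate 3, at -0.16 with an edgeR adjusted p of 0.0189. The highest edgeR adjusted p of the 6 was 0.309, without control replicate 1.

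Pcbp3 (ENSRNOG00000001245, chromosome 20) is the least studied of the paralogs and had 252, 258 and 287 counts under the control plasmid, against 246, 246 and 231. This came to 12.9, 12.4 and 12.8 CPM against 11.2, 12.2 and 11.8. The groups did not overlap, but at these counts the counting error alone is 5.90% to 6.58% per library, beside a PCBP1-OE level of 0.924 of control. The difference of -0.11 log2 units (SE 0.10, edgeR adjusted p = 0.485) was not called, and its 95% interval of -0.33 to 0.10 includes 0.

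Among the STAR proteins, Khdrbs1 (ENSRNOG00000046794, chromosome 5) encodes Sam68, a nuclear splicing regulator that Src-family kinases phosphorylate. Its CPM was 183, 188 and 185 under the control plasmid, against 180, 167 and 175, so that all PCBP1-OE libraries lay below the controls, the nearest pair by less than the range within either group. That is -0.09 log2 units (SE 0.04, edgeR adjusted p = 0.204, 95% interval -0.19 to 0.0060). Khdrbs3 (ENSRNOG00000009539, chromosome 7), which encodes the neural splicing regulator SLM2, was at 35.1, 37.6 and 34.6 CPM in the control libraries, all above the 32.8, 33.8 and 33.3 of PCBP1-OE. The difference of -0.10 log2 units (SE 0.06, edgeR adjusted p = 0.297) had a 95% interval of -0.24 to 0.03. The third Khdrbs gene, Khdrbs2, had 0 to 2 counts per library and was not tested.

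Of the FUSE-binding proteins, Fubp1 (ENSRNOG00000043370, chromosome 2), an activator of Myc transcription, was at 64.4, 64.4 and 66.7 CPM in the controls, against 75.1, 67.7 and 74.5. The groups did not overlap, and PCBP1-OE replicate 2 lay nearer to the controls than to the other PCBP1-OE libraries. With all libraries the difference was 0.15 log2 units (SE 0.05, 95% interval 0.04 to 0.27, edgeR adjusted p = 0.0796). Fubp1 was called in 1 of the 6 fits that leave out a library. That was the fit without control replicate 3, at 0.17 with an edgeR adjusted p of 0.0412. The highest edgeR adjusted p of the 6 was 0.252, without PCBP1-OE replicate 1.

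Fubp3 (ENSRNOG00000009139, chromosome 3), whose rat protein is also known as MARTA2 for its binding to the dendritic transport element of Map2 mRNA, rested most on a single library. The controls held 506, 494 and 773 counts against 786, 701 and 590, or 25.8, 23.7 and 34.5 CPM against 35.7, 34.7 and 30.1. Control replicate 3 lay within the PCBP1-OE range, while the other controls lay below it, and the controls varied by 20.4% where the counting error was at most 4.50%. PCBP1-OE was 0.26 log2 units higher in the full fit (SE 0.12, edgeR adjusted p = 0.169). Without control replicate 3 it was 0.44 with an adjusted p of 0.0020, and without control replicate 2 it was 0.16 with 0.501.

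In the FMRP family, the Fmr1 counts were 804, 852 and 813 under the control plasmid and 1318, 862 and 1068 under PCBP1, which came to 41.0, 40.8 and 36.3 CPM against 59.8, 42.7 and 54.5. All PCBP1-OE libraries were above all controls, but PCBP1-OE replicate 2 lay nearer to the controls than to the other PCBP1-OE libraries. Fmr1 averaged 39.4 ± 2.69 CPM under the control plasmid and 52.4 ± 8.75 under PCBP1 (SD, n = 3 a group). It rose by 0.41 log2 units (SE 0.10, 95% interval 0.20 to 0.63, adjusted p = 0.0266, edgeR quasi-likelihood). Of all genes tested, 9.13% had a larger absolute log2 fold change. The spread of the PCBP1-OE libraries, 16.7%, was well above their counting error of 2.75% to 3.53%.

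The call of Fmr1 depended on which libraries were used. Leaving out control replicate 1 or 2 gave an edgeR adjusted p of 0.0712 or 0.105, and leaving out PCBP1-OE replicate 1 or 3 gave 0.128 or 0.0684, all past the threshold. It was still called without control replicate 3 (0.0181) and without PCBP1-OE replicate 2 (0.00935). The fold change itself stayed above 0 in all 6 of these fits, from 0.31 without PCBP1-OE replicate 1 to 0.54 without PCBP1-OE replicate 2. The 15 alternatives gave adjusted p-values from 6.3e-09, in edgeR with no filter, to 0.128, and 10 of them called the gene. The next lowest adjusted p was 0.0022, from DESeq2. Among the 6 fits that leave out a library, the share of all genes called was 0.375% to 5.42% in the 4 that lost the call of Fmr1. It was 22.3% and 1.06% in the other 2.

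Since Fmr1 was the member called, the DNA just before its annotated start is shown, 177 bases from RefSeq on GRCr8, plus strand, chrX:152284680-152284856. Capitals mark the matches in these bases to 3 motifs, looked for on both strands. These were an NRF1 core, GCGCATGC, an E-box, CACGTG, and a GC box, GGGCGG.
Fmr1: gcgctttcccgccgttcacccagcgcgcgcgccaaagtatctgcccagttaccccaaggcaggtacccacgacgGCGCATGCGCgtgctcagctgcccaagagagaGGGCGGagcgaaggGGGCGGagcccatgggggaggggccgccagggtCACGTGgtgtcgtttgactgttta

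The NRF1 core matched on both strands, at 103 and 101 bases before the annotated start, as 2 overlapping matches that make up the single capital stretch. The GC boxes began 71 and 57 bases and the E-box 24 bases before it. For shares of promoters the first 250 bases of each promoter sequence were searched, which for Fmr1 run past its annotated start. The NRF1 core was in 2.2% of all 33469 promoters and, of the 7 members with a promoter in the table, in that of Fmr1 only. The E-box was in 5.59% of all promoters and in those of Fmr1 and Khdrbs1, and the GC box in 30.5% and in 6 of the 7 members, all but Fubp3. Such matches describe letters and do not show that a factor binds.

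Fxr1 (ENSRNOG00000051480, chromosome 2), the relative of Fmr1 that muscle and heart depend on most, had 142, 150 and 166 CPM in the controls, against 179, 174 and 168. The groups did not overlap, with control replicate 3 just below PCBP1-OE replicate 3. At 0.19 log2 units (SE 0.06, 95% interval 0.06 to 0.31) the difference just missed the threshold, with an edgeR adjusted p of 0.0563. Fxr1 passed it in 6 of 15 alternatives, among them DESeq2 (0.0266) and the fit without control replicate 3, which gave 0.25 with an adjusted p of 0.0023. Of the 6 fits that leave out a library, only this 1 called Fxr1, and the highest edgeR adjusted p was 0.224.

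Fxr2 (ENSRNOG00000011876, chromosome 10) was at 143, 143 and 142 CPM in the controls, against 137, 150 and 137. The controls lay inside the range of the PCBP1-OE libraries, and the difference was -0.01 log2 units (SE 0.05, edgeR adjusted p = 0.874, 95% interval -0.12 to 0.09). Its sign changed with the scaling, to 0.0058 after upper-quartile scaling.

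Control replicate 3 was the control nearest to the PCBP1-OE mean in 7 of the 10 members, beside the 50.1% of all genes given above. When it was left out, 5 of the 10 members were called, Fubp1, Fubp3, Fmr1 and Fxr1 higher and Pcbp4 lower, and the share over all genes rose as well, to 22.3%. When another library was left out, 0 or 1 member was called, and 0.375% to 5.42% of all genes tested. Leaving out the control nearest to the PCBP1-OE mean tends to widen a difference by construction. For Fubp1, Fubp3, Fxr1 and Pcbp4, whose nearest control was replicate 3, the calls made without it are therefore no further support. For Fmr1 the difference narrowed without it, from 0.41 to 0.36 log2 units. That fit shares its libraries with the full fit, so its call is no independent support. Fmr1 and Khdrbs1 had control replicate 1 as the nearest control, and Pcbp3 control replicate 2.

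**Figure D3:**
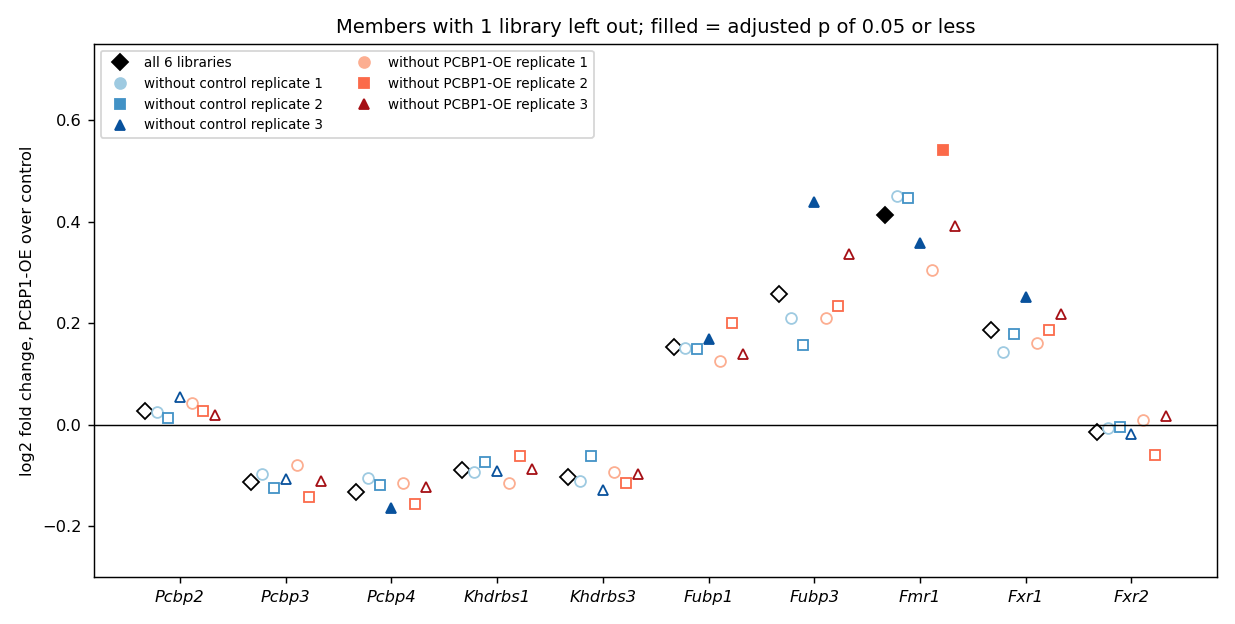
Log2 fold change of each member, PCBP1-OE over control (y axis), with all 6 libraries (diamond) and with 1 library left out (blue for controls, red for PCBP1-OE); filled points have an adjusted p of 0.05 or less. The dark blue triangles, without control replicate 3, are filled for 5 members, and Fmr1 ranges from 0.31 to 0.54.

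Ratios of counts between paralogs in the same library need no scaling between libraries, and 8 pairs were compared. Since reads per gene also grow with transcript length, which was not used here, the ratios are compared between groups and are not ratios of molecules. The groups did not overlap in 1 of the 8 pairs. For Pcbp2 over Pcbp3 the log2 ratio was 5.03, 5.07 and 5.11 in the controls, against 5.25, 5.16 and 5.23, a difference of 0.14 between the means (exact permutation test, two-sided here and below, p = 0.1, which 3 against 3 cannot go below, and 0.48 after Benjamini-Hochberg adjustment over the 8 pairs). Pcbp2 over Pcbp4 differed by 0.16, with control replicate 3 at 1.191 and PCBP1-OE replicate 2 at 1.191 meeting at the same value (exact permutation test, p = 0.2, adjusted 0.48). Pcbp2 made up 66.5% ± 1.49 of the counts on the 3 paralogs under the control plasmid and 68.9% ± 0.623 under PCBP1 (SD, n = 3 a group).

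Within the FMRP family the ratio of Fmr1 to Fxr2 differed most, by 0.42, or 1.33-fold. Its log2 values of -1.80, -1.81 and -1.97 under the control plasmid stood against -1.19, -1.82 and -1.33. PCBP1-OE replicate 2 lay among the controls, and the exact permutation test gave p = 0.3 (adjusted 0.48). A change of Fmr1 unlike that of Fxr2 or of Fxr1 was thus not resolved with 3 libraries a group, the latter ratio differing by 0.21 (exact permutation test, p = 0.3, adjusted 0.48). Fxr1 over Fxr2 differed by 0.20 (exact permutation test, p = 0.2, adjusted 0.48). Of the 3 genes' counts, Fmr1 took 11.8% ± 1.09 under the control plasmid and 14.2% ± 2.28 under PCBP1, and Fxr2 42.7% ± 1.33 and 38.5% ± 2.34 (SD, n = 3 a group).

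The ratio of Khdrbs1 to Khdrbs3 was nearly the same in both groups, with means of 2.37 and 2.39 on the log2 scale and a difference of 0.01 (exact permutation test, p = 0.8, adjusted 0.8). Pcbp4 over Pcbp3 differed by -0.02 (p = 0.7, same exact test, adjusted 0.8). Fubp1 over Fubp3 differed by -0.12 with a pooled standard deviation of 0.22 within groups (exact permutation test, p = 0.5, adjusted 0.667).

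**Figure D4:**
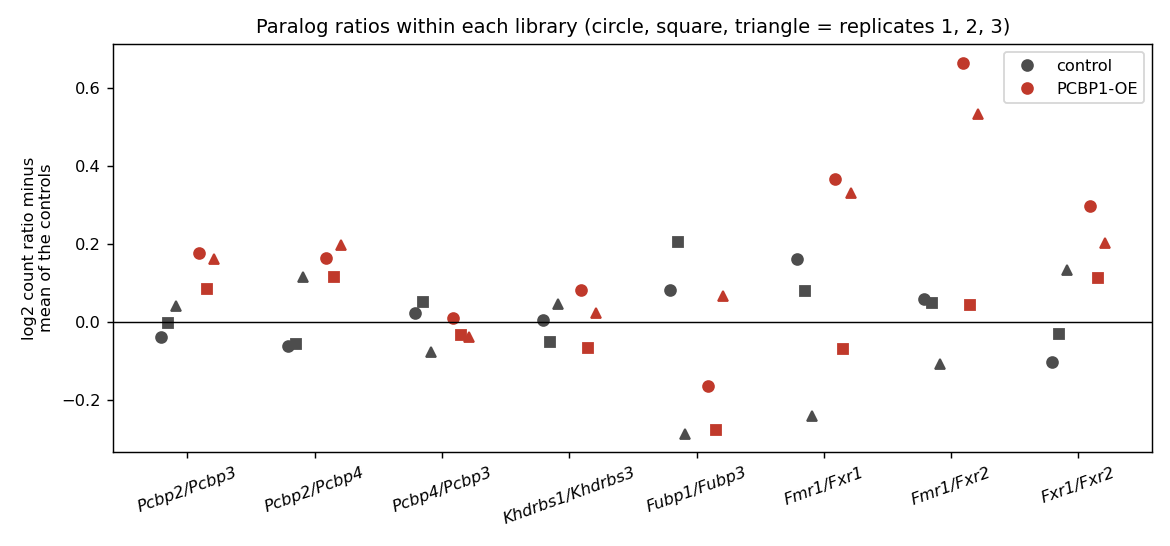
Log2 ratio of counts of paralogs within each library, with the mean of the controls subtracted (y axis), for 8 pairs (x axis); grey is control and red PCBP1-OE, with replicates 1, 2 and 3 as circle, square and triangle. Groups are apart for Pcbp2/Pcbp3 only, and PCBP1-OE replicate 2 lies among the controls for Fmr1/Fxr2.

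Other KH-domain genes were read from a list of 37, of which 32 were in the table and 26 had enough counts. Of these, 1 was called higher and 1 lower, or 7.69%, beside 9.45% of all genes tested (4.45% higher and 5% lower). Mex3c, a KH and RING protein that ubiquitinates and binds RNA, rose from 95.1 ± 7.52 to 112 ± 5.50 CPM (SD, n = 3 a group), or by 0.24 log2 units (SE 0.06, edgeR adjusted p = 0.0289). Ascc1, part of a complex that aids alkylation repair, fell from 54.2 ± 1.02 to 47.2 ± 2.08 CPM, a difference of -0.20 log2 units (SE 0.05, edgeR adjusted p = 0.0383). Mex3c was called in 1 of the 6 fits that leave out a library. That was the fit without control replicate 3, its control nearest to the PCBP1-OE mean. Ascc1 was called in 2, without control replicate 3 and without PCBP1-OE replicate 3. The KH genes with the most CPM were not called. Rps3, the ribosomal protein with a KH domain, differed by -0.15 log2 units (edgeR adjusted p = 0.0746), Hdlbp, or vigilin, by -0.09 and Sf1, which reads the branch point, by 0.02. The median log2 fold change of the 26 was 0.08, with 21 above 0 and 5 below, beside 0.0029 for all genes tested.

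Proteins that bind FMRP or share its granules were read from a list of 25, all tested. Of these, 3 were called higher and 0 lower, or 12%, beside 9.45% of all genes tested (4.45% higher and 5% lower). DESeq2 and limma-voom also called 0 lower, and in edgeR the 1 gene of the list that was lower at an unadjusted p under 0.05 was Dicer1, which cuts miRNA precursors (-0.15 log2 units, edgeR adjusted p = 0.111). Nufip2, an RNA-binding partner of FMRP, was the most changed, averaging 10.2 ± 1.56 CPM under the control plasmid and 16.9 ± 1.44 under PCBP1 (SD, n = 3 a group). Its counts of 221, 176 and 246 in controls lay below the 337, 363 and 343 of PCBP1-OE, with no overlap. It rose by 0.73 log2 units (SE 0.12, edgeR adjusted p = 0.00839), and the call held in 5 of the 6 fits that leave out a library, not without control replicate 2. G3bp2, a stress granule protein, rose by 0.35 log2 units (SE 0.10, edgeR adjusted p = 0.0429) and Ythdf3, a reader of methylated adenosine in mRNA, by 0.26 (SE 0.06, adjusted p = 0.0179). They were called in 2 and 4 of the 6 fits that leave out a library, each time with the fit without control replicate 3 among them. Those with the most CPM were not called. The poly(A)-binding protein Pabpc1 was at -0.03, Ybx1 at -0.04 and Caprin1, which binds FMRP and G3BP proteins, at 0.16 (edgeR adjusted p = 0.118). The list's median log2 fold change was 0.05, with 18 above 0 and 7 below, beside 0.0029 for all genes tested.

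**Figure D5:**
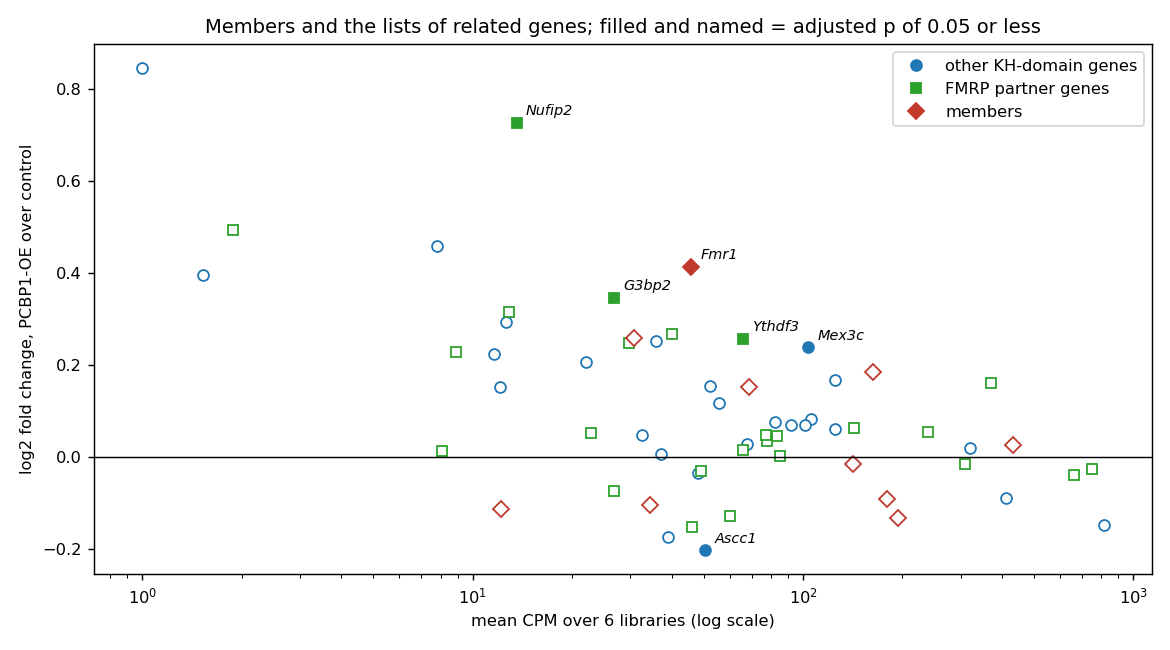
Log2 fold change, PCBP1-OE over control (y axis), against mean CPM over the 6 libraries (x axis, log scale) for the members (red diamonds), other KH-domain genes (blue circles) and FMRP partner genes (green squares) that were tested; filled, named points have an adjusted p of 0.05 or less. The 6 filled points are Fmr1, Mex3c, Ascc1, Nufip2, G3bp2 and Ythdf3, of which Ascc1 alone lies below 0.

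The genes with a profile most like that of Pcbp2 were sought by the root mean square difference of centred log2 CPM over the 6 libraries. They were Mrps2, a mitochondrial ribosomal protein, at 0.012, Anks3 at 0.013 and Pogk at 0.014. Fxr2 was the member nearest to Pcbp2, at 0.063, with 13.8% of all genes tested nearer, and Fmr1 the farthest, at 0.25, with 81.3% nearer.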

How the data were processed

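Poly-A RNA of 6 libraries was sequenced, 3 control and 3 PCBP1-OE, each matched to its column by its title. The values that the authors deposited are unnormalised read counts for each gene. By the study's methods, FASTX-Toolkit cleaned the reads, TopHat2 aligned them to Rnor_6.0, and those with 1 mapped position were counted. The submitters' processing notes name GRCh38, but the gene identifiers are those of rat. Labels and methods name different stranded library kits. What tool counted, with which strand setting and annotation, is not given in the sources used here. By RefSeq (GRCr8, used for names and promoters only), 5 of the 10 members overlap another gene, Pcbp2, Pcbp3, Pcbp4, Khdrbs3 and Fxr1, so their counts are uncertain in that respect.

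Counts were tested with edgeR 4.0.16 (R 4.3.3), by glmQLFit and glmQLFTest, after filterByExpr (min.count 10, min.total.count 15) and TMM scaling, on 12624 genes. Adjustment followed Benjamini and Hochberg over all of them, and confidence intervals are unadjusted. Paralog ratios had 0.5 added to each count and were compared by exact permutation tests (scipy 1.17.1). The depth per library is 19730209 to 22315623 counts. No pair of replicates was as close as sampling alone would give (chi-square per gene 4.87 to 16.9).

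The settings varied were the scaling (RLE, upper quartile), the filter (none, or 1 CPM in 3 libraries) and the test, with limma-voom (limma 3.58.1), DESeq2 1.42.0, edgeR's exact test, a robust prior, a block on the replicate number, and fits that leave out 1 library. The members and lists were chosen with earlier results of these data known. Named list genes are those called, at most 8 a list, and the 3 with the highest CPM. The profile search was made for Pcbp2. Dicer1, Khdrbs2, Fmr1nb, Igf2bp3 and Qk were named after their values were seen. Khdc4 was matched by a synonym, and Nova2, Ddx53, Khdc3, Hnrnpk and Pcbp1 had no match. A glial marker of the list is not reported here and stays out of the sums.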

Additional observations from a re-analysis of the deposited data

How the results depend on the processing

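Every member but Fxr2 kept its direction in all 15 alternatives. Fxr2 went from -0.01 to 0.0058 after upper-quartile scaling, and ranged from -0.061 to 0.016 with 1 library left out, above 0 without PCBP1-OE replicate 1 (0.0084) or 3 (0.016). The replicate numbers did not pair the libraries (correlations of deviations -0.08, -0.05 and -0.04, and 0 of 3 numbers best correlated with its own), and with the replicate block 16 genes were called in all, with 0 members, 0 other KH-domain genes in either direction and 0 FMRP partners among them, Fmr1 being at 0.40 (edgeR adjusted p = 0.118). The count of members called higher was 2 under upper-quartile scaling, DESeq2, the exact test and the robust prior, where 8.57% to 12.6% of all genes tested were called. It was 3 with no filter, where 2090 genes were called in all, or 10.1%. For other KH-domain genes the count higher was 2 under those 4 settings and 4 with no filter, and the count lower was 0 under upper-quartile scaling and 2 under DESeq2 and with no filter. FMRP partners called higher came to 6 with no filter. Upper-quartile scaling split all calls into 655 higher and 427 lower, beside 562 and 631. With 1 library left out, 48 to 2860 genes were called in all, with 0 to 4 members higher and 0 to 1 lower, 0 to 3 other KH-domain genes higher and 0 to 3 lower, and 0 to 7 FMRP partners higher. The highest total came without control replicate 3 and the lowest without control replicate 2. The ratio of Pcbp4 to Pcbp3 then differed by -0.058 to 0.0070, and that of Khdrbs1 to Khdrbs3 by -0.022 to 0.052, turning at -0.013 and -0.022 without control replicate 2 and PCBP1-OE replicate 1. The causes were not tested. With 3 libraries a group, the exact test of a ratio cannot go below p = 0.1.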

Other observations

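The gene that follows Fmr1 on chromosome X in RefSeq, Fmr1nb, averaged 77.4 ± 4.62 CPM under the control plasmid and 76.9 ± 5.41 under PCBP1 (SD, n = 3 a group). PCBP1-OE differed from control by -0.01 log2 units (SE 0.06, edgeR adjusted p = 0.935), with a 95% interval of -0.14 to 0.12.

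Among KH-domain genes with few counts, Igf2bp3, an oncofetal mRNA-binding protein, had 13, 16 and 16 counts under the control plasmid, against 35, 25 and 20. The groups did not overlap, and the difference of 0.85 log2 units (SE 0.30) was not called, at an edgeR adjusted p of 0.0841. Qk, which encodes the glial splicing regulator quaking, had 155, 107 and 150 counts under the control plasmid, against 165, 195 and 195. As CPM the groups overlapped, since control replicate 1 was at 7.90 and PCBP1-OE replicate 1 at 7.49, and the difference was 0.46 log2 units (SE 0.17, edgeR adjusted p = 0.0930).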
